A study of Arabidopsis thaliana with 6 samples.

Results

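*ARR15*, *ARR16* and *BRL1* were followed across the 6 arrays of a comparison of wild-type *Arabidopsis thaliana* stems with stems that overexpress *CLE41*. *ARR15* (AT1G74890) and *ARR16* (AT2G40670, named *RR16* in the RefSeq table) encode type-A response regulators of cytokinin signalling, and *BRL1* (AT1G55610) encodes a brassinosteroid receptor of the vascular tissue. They were chosen by name, each with 1 probe set tied to that gene alone, and are 3 of 13356 genes with such a probe set. A probe set is a group of short array probes read out as 1 value. Of 22746 probe sets, 13513 were tied to 1 gene in the probe table used here, 503 to several genes, and 8730 were not listed in it.

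All plants were of the Columbia ecotype and 5 weeks old, and were grown with 16 h of light and 8 h of dark. Wild-type (WT) plants were compared with 35S::CLE41 plants, which express *CLE41* from 35S, a viral promoter active in most tissues rather than in the phloem alone, where the gene is normally expressed. The labels say that 35S::CLE41 lines were made in this background and do not say how many lines were sampled. RNA came from the lower part of the inflorescence stem, without the 1 cm next to the rosette. Each genotype had 3 samples, each on 1 array. The labels do not state that the samples came from separate plants. The p-values set a difference between genotypes against the spread among these samples only, and that spread can be technical.

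Cytokinins are plant hormones that promote cell division. They are perceived by histidine kinase receptors, and a phosphate group then passes through phosphotransfer proteins to response regulators in the nucleus. Type-B response regulators are transcription factors that switch on cytokinin target genes, among them the type-A regulators, which lack a DNA-binding domain and dampen the pathway as negative feedback. In the stem, cytokinin is known to keep the vascular cambium dividing, the cell layer between xylem and phloem in which the peptide made from *CLE41* acts through the receptor kinase PXY. Brassinosteroids are steroid hormones perceived at the cell surface by BRI1, which is made in most cells, and by its relatives BRL1 and BRL3, whose expression is known to centre on vascular cells. Brassinosteroid signalling is known to favour xylem formation.

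The data collected were normalized intensities, used here as log2 values. A log2 difference of 1 stands for a doubling in 35S::CLE41 relative to WT. The median intensity of an array was 96.3, 92.1 and 91.9 on WT replicates 1 to 3. On 35S::CLE41 replicates 1 to 3 it was 97.4, 101 and 97.6, each above all WT arrays. *CLE41* (AT3G24770) was higher in 35S::CLE41, as labelled, by 1.77 on the log2 scale (SE 0.18; limma adjusted p = 0.0013). WT replicate 2 stood apart: it differed at least 2-fold from the mean of the other WT arrays at 365 probe sets, against 32 to 100 for each of the other 5 arrays compared with the rest of its own group. The results for *ARR15*, *ARR16*, *BRL1*, *PSY1R* and the tissue markers are therefore also given without it. Marker genes of stem tissues were measured without a detection value. The xylan synthesis gene *IRX10* had a mean log2 intensity of 9.98 in WT and the photosynthesis gene *RCA* one of 13.12. Markers of the phloem (*OPS*) and cambium (*PTL*) had WT means of 5.53 and 5.26, under 5.67, which bounds the dimmest 40% of probe sets. The other measured markers of phloem (*SWEET11*) and cambium (*MOL1*) lay above that level, with WT means of 6.60 and 8.12.

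*ARR15* and *BRL1* rose in 35S::CLE41, 2.24-fold and 2.51-fold, and *ARR16* did not pass the test. Of all 22746 probe sets 14.8% were called at an adjusted p of 0.05, with 7.93% higher and 6.86% lower. Among probe sets tied to 1 gene, 12.6% were called and 6.99% were called higher. For 34.5% of all probe sets the WT and 35S::CLE41 arrays had no overlap. In whole stem pieces, more cells that express a gene and more RNA per cell cannot be told apart.

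**Figure D1:**
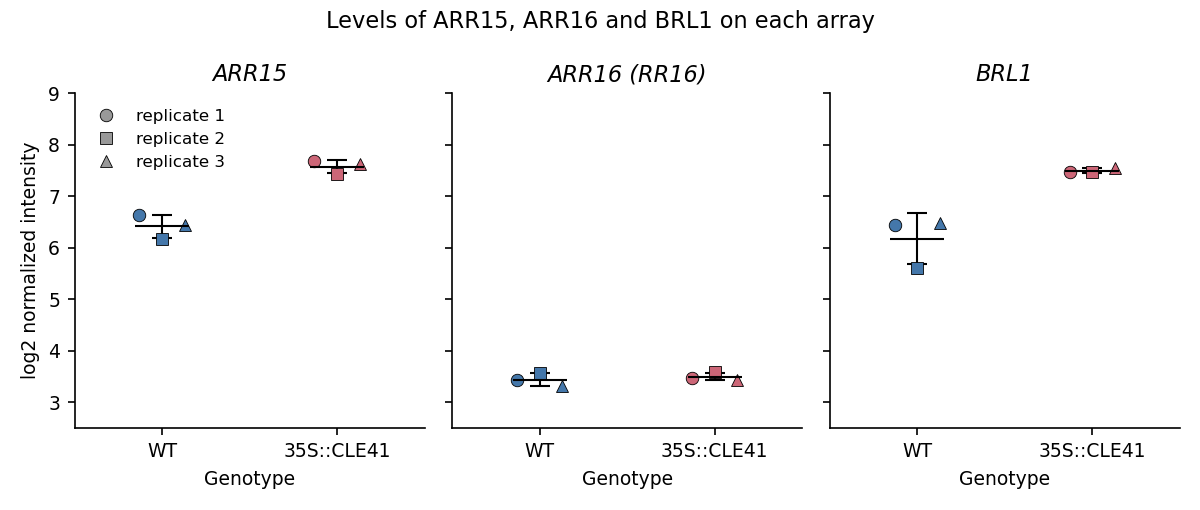
Log2 normalized intensity of each gene on each array (symbols, by replicate number) in WT (blue) and 35S::CLE41 (red); the long bar is the mean and the whiskers are the SD of 3 arrays. All 35S::CLE41 arrays lie above all WT arrays for ARR15 and BRL1, with WT replicate 2 lowest for both, while the groups overlap for ARR16.

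*ARR15* is known to be induced quickly by cytokinin and to limit the further response to it. Its log2 intensity in WT was 6.63 on replicate 1, 6.17 on replicate 2 and 6.43 on replicate 3. In 35S::CLE41 it was 7.68, 7.43 and 7.62 on replicates 1 to 3. All 35S::CLE41 arrays were thus above all WT arrays, with a gap of 0.80 between the lowest 35S::CLE41 array and the highest WT array. The means were 6.41 ± 0.23 in WT and 7.58 ± 0.13 in 35S::CLE41 (SD, n = 3 each). The log2 difference was therefore 1.16 (SE 0.14) with a limma adjusted p of 0.0023. In linear terms the level was 2.24-fold higher, with a 95% interval from 1.79 to 2.80. A log2 difference of at least this size in either direction was found for 3.14% of all probe sets, and *ARR15* ranked 352 of 22746 by p. WT replicate 2 was the lowest WT array, 0.36 below the mean of the other WT arrays. Without it the difference was 1.05, or 2.06-fold (adjusted p = 0.0020).

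*ARR16* encodes a second type-A regulator, likewise known to be cytokinin-inducible. Its log2 intensity was 3.42, 3.57 and 3.31 on WT replicates 1 to 3. On 35S::CLE41 replicates 1 to 3 it was 3.47, 3.58 and 3.44. The genotypes overlapped, and replicate 2 was the highest array in each. Means were 3.44 ± 0.13 in WT and 3.50 ± 0.07 in 35S::CLE41 (SD, n = 3 each). The log2 difference was 0.06 (SE 0.11; adjusted p = 0.768), or 1.04-fold with a 95% interval from 0.88 to 1.24. The upper end of this interval lay below the lower end of that for *ARR15*. The intensity of *ARR16* lay near the bottom of the array: only 0.976% of probe sets had a lower mean. No background or detection value was used here, and whether the probe set could show a difference at this level was not tested. Without WT replicate 2 the difference was 0.13 (adjusted p = 0.546), and with the arrays shifted to 1 median it turned to -0.016.

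The responses of both type-A regulators were compared within arrays, by taking *ARR15* minus *ARR16* on the log2 scale, so that a shift common to an array drops out. This value was 3.21, 2.61 and 3.12 on WT replicates 1 to 3. It was 4.21, 3.85 and 4.18 on 35S::CLE41 replicates 1 to 3. Each 35S::CLE41 array lay above each WT array, and the mean differed by 1.103 between genotypes. *ARR15* alone differed by 1.16 and *ARR16* by 0.06, so this value largely restates the rise of *ARR15*. An exact two-sided permutation test gave p = 0.1, the smallest p that 3 against 3 arrays allow, so a p under 0.05 was out of reach. Without WT replicate 2 the mean difference was 0.92 (exact permutation p = 0.1). The level of *ARR16* limits this comparison in the way given above.

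*BRL1* encodes a leucine-rich repeat receptor kinase that binds brassinosteroid. In WT its log2 intensity was 6.43 on replicate 1, 5.60 on replicate 2 and 6.48 on replicate 3. In 35S::CLE41 it was 7.47, 7.47 and 7.56 on replicates 1 to 3. The groups did not overlap, with a gap of 0.98 between the lowest 35S::CLE41 array and the highest WT array. The mean rose from 6.17 ± 0.50 in WT to 7.50 ± 0.05 in 35S::CLE41 (SD, n = 3 each). The log2 difference was 1.33 (SE 0.22; adjusted p = 0.0084). In linear terms the level was 2.51-fold higher, with a 95% interval from 1.75 to 3.58. A difference of at least this size was found for 2.13% of probe sets, and *BRL1* ranked 983 by p. The spread in WT came from replicate 2, which lay 0.86 below the mean of the other WT arrays. A deviation of at least that size on WT replicate 2 was found for 2.64% of probe sets. Without that array *BRL1* rose by 1.04 (SE 0.10), or 2.06-fold, with an adjusted p of 0.00096.

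**Figure D2:**
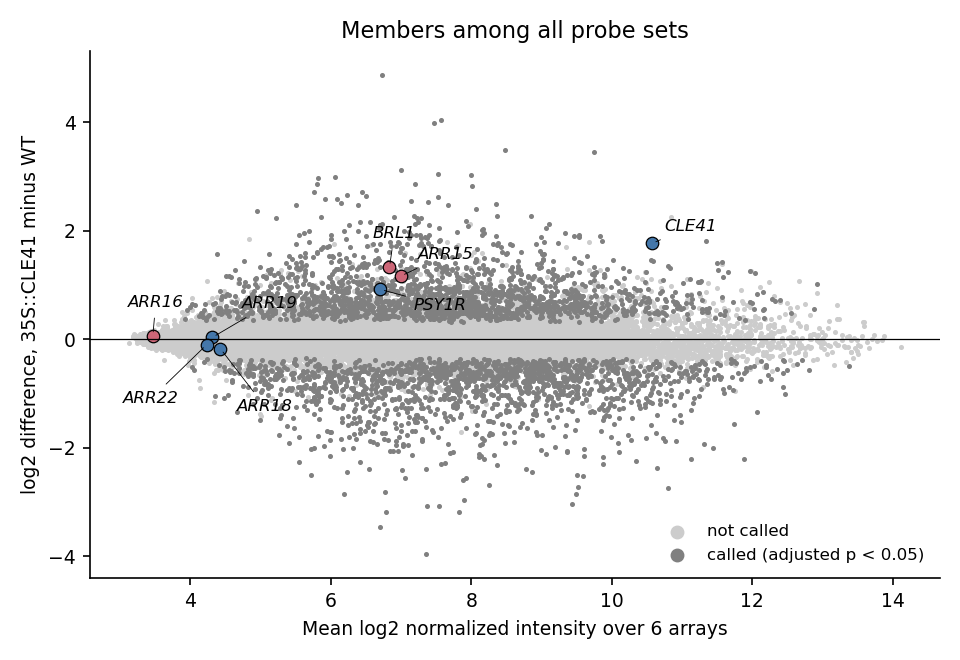
Log2 difference (35S::CLE41 minus WT) of all 22746 probe sets against their mean log2 intensity over 6 arrays, with called probe sets in dark grey, the members in red and other named genes in blue. ARR15 and BRL1 lie in the upper cloud at middling intensity, and ARR16 lies at the far left near a difference of 0.

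The cytokinin pathway around *ARR15* and *ARR16* was thinly covered by the probe table. Genes without a named probe set there may be on the array among the 8730 probe sets it does not list. Of 68 listed genes for synthesis, breakdown, perception and response, 5 had a probe set tied to that gene alone in the table used here, all of them response regulators. Of these 5, *ARR15* rose and none fell, with a median log2 difference of 0.03 against 0.0020 over all probe sets. Over all probe sets tied to 1 gene, 12.6% were called and 6.99% were called higher. Whether the list departs from these shares was not tested. No receptor, phosphotransfer protein, cytokinin response factor, or synthesis or breakdown enzyme on the list was analysed here. Of 10 type-A regulators on the list, *ARR15* and *ARR16* had a probe set tied to them alone.

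The type-B regulator genes *ARR18* and *ARR19*, which encode transcription factors, did not pass the test. *ARR18* had a mean of 4.52 ± 0.14 in WT and 4.34 ± 0.05 in 35S::CLE41 (SD, n = 3 each), a log2 difference of -0.17 (SE 0.10; adjusted p = 0.328). *ARR19* had means of 4.30 ± 0.13 and 4.33 ± 0.14, a difference of 0.03 (SE 0.12; adjusted p = 0.894). The type-C regulator gene *ARR22*, whose product resembles type-A regulators but belongs to a separate group, had means of 4.28 ± 0.06 and 4.18 ± 0.08, a difference of -0.10 (SE 0.09; adjusted p = 0.551). *ARR23*, added because RefSeq lists it as a response regulator, differed by 0.03 (SE 0.11; adjusted p = 0.885). WT and 35S::CLE41 arrays overlapped for these 4 genes, and the mean of each genotype lay under 5.67 in each of them, as for *ARR16*. *ARR15* was thus the 1 response regulator gene of 6 measured whose means lay above that level.

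The brassinosteroid pathway was covered by *BRL1* alone among 47 listed genes, and *BRI1*, *BRL2*, *BRL3*, the co-receptor genes and the synthesis genes were not analysed here. *BRH1*, a RING finger gene known to be lowered by brassinosteroid, was added by its annotation. Its log2 intensity was 11.03 ± 0.26 in WT and 11.01 ± 0.18 in 35S::CLE41 (SD, n = 3 each), a difference of -0.02 (SE 0.16; adjusted p = 0.965), and the genotypes overlapped.

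Among receptor kinase genes of the same leucine-rich repeat subfamily as *BRL1*, *PSY1R* and *EMS1* were measured and were added by family. *PSY1R* (AT1G72300), linked to the response to the sulfated growth peptide PSY1, had log2 intensities of 6.65, 6.02 and 6.07 on WT replicates 1 to 3. In 35S::CLE41 it had 7.06, 7.32 and 7.13, so that the groups did not overlap. It rose by 0.92 (SE 0.18), or 1.89-fold, with an adjusted p of 0.014. The rise was 0.81 without WT replicate 2 (adjusted p = 0.024), and the call was lost without 35S::CLE41 replicate 2 (0.85; adjusted p = 0.0601). *EMS1*, known for its role in anthers, had means of 4.28 ± 0.11 and 4.22 ± 0.04 (SD, n = 3 each), under 5.67, with a difference of -0.06 (SE 0.10; adjusted p = 0.779).

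Marker genes of stem tissues were set beside these rises. The marker genes were listed when earlier results of these data were already known. On the whole array the shares of calls were 7.93% upward and 6.86% downward. Whether the markers depart from these shares was not tested. Of 6 cambium markers 2 were measured, *MOL1* and *PTL*. Both rose, by 0.51 (SE 0.12, limma adjusted p = 0.027) and 0.75 (SE 0.16, limma adjusted p = 0.018). Without WT replicate 2 the rises were 0.55 and 0.61. The summed intensity of *MOL1* and *PTL* on the linear scale ran from 309.0 to 324 in WT and from 404 to 519 in 35S::CLE41. *MOL1* was not called without WT replicate 1 or 3 or without 35S::CLE41 replicate 1 or 2 (adjusted p from 0.0679 to 0.0904), nor *PTL* without 35S::CLE41 replicate 2 (adjusted p = 0.0639). Of 9 xylem and fibre markers 2 were measured and neither was called, with sums from 985 to 2396 in WT, the lowest of them on replicate 2, and from 2320 to 3298 in 35S::CLE41. *IRX15* and *IRX10* differed by 0.90 and 0.45 with all arrays, and by 0.40 and 0.13 without WT replicate 2. Of 5 phloem markers 2 were measured and neither was called with all arrays, with sums from 138 to 155 and from 144 to 196. Without WT replicate 2 *OPS* was called, its difference moving from 0.41 to 0.71 (adjusted p = 0.042), while *SWEET11* moved from 0.22 to 0.067 (adjusted p = 0.883). *WSD1*, the 1 of 6 epidermal markers measured, fell by 3.08 (SE 0.24), its intensity running from 389 to 759 in WT and from 52.0 to 71.2 in 35S::CLE41. Of 5 markers of photosynthetic cortex 3 were measured, with sums from 16716 to 19336 in WT and from 13193 to 15355 in 35S::CLE41. *SBPASE* fell by 0.66 (SE 0.11). *PRK* and *RCA* were not called with all arrays, with differences of -0.34 (adjusted p = 0.125) and -0.18 (adjusted p = 0.512). Without WT replicate 2 *WSD1* differed by -2.84, *SBPASE* by -0.74, *PRK* by -0.45 (adjusted p = 0.0531) and *RCA* by -0.17 (adjusted p = 0.643). No measured marker was listed at 0, but without a detection value this does not show that each was detected. The part of tissue makeup in the rises of *ARR15* and *BRL1* was not tested.

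**Figure D3:**
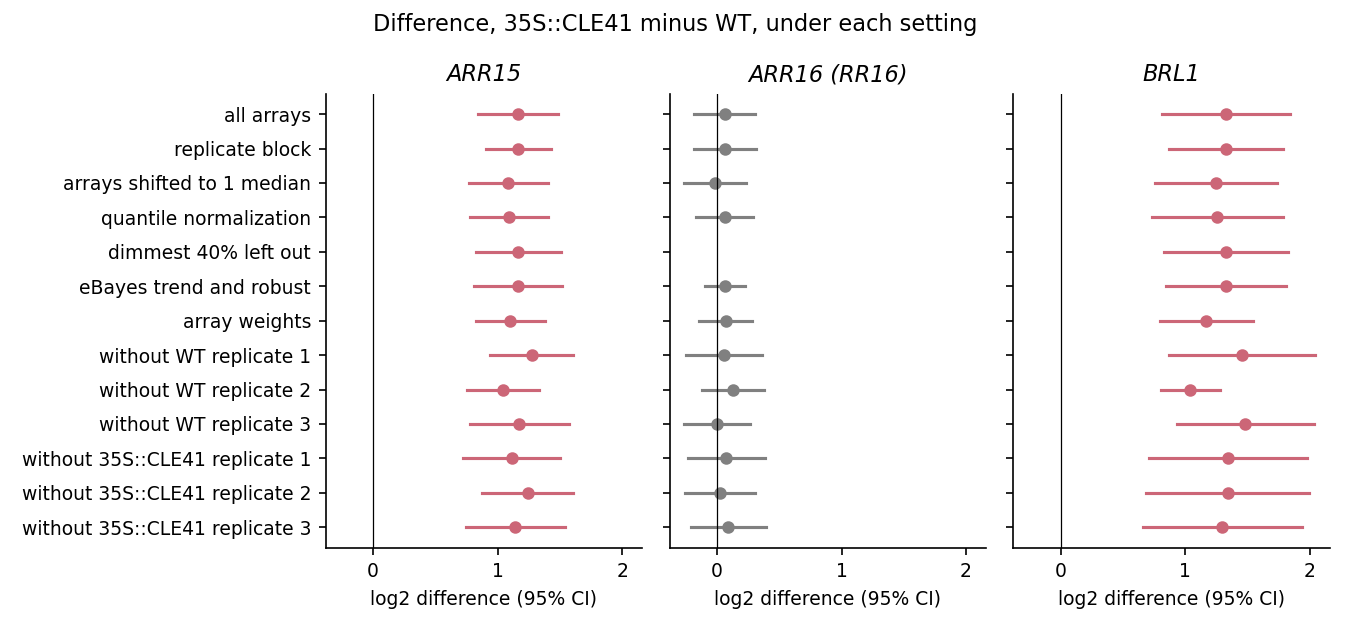
Log2 difference (35S::CLE41 minus WT, points) with its 95% interval (lines) for each gene under each way of processing, red where the adjusted p was under 0.05. ARR15 and BRL1 stay above 0 throughout, from 1.05 to 1.27 and from 1.04 to 1.48; ARR16 stays near 0 and has no value where the dimmest 40% were left out.

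The rises of *ARR15* and *BRL1* were called under each of 12 alternatives. The log2 difference of *ARR15* lay between 1.05 and 1.27, with an adjusted p of at most 0.0139. That of *BRL1* lay between 1.04 and 1.48, with an adjusted p of at most 0.0391, reached without 35S::CLE41 replicate 2. The plot of differences under each way of processing shows that leaving out WT replicate 2 gave the smallest difference and, among the fits without 1 array, the shortest interval for both genes.

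Genes with a pattern like that of each member were found among 1534 other genes that have a symbol. Likeness was the root mean square difference between the log2 values of both genes over the 6 arrays, after subtracting each gene's own mean, so a small value means that the genes moved alike in size and in order. For *ARR15* the closest were *SGP1*, encoding a small GTPase, at 0.148, *BGLU33*, encoding a member of the beta-glucosidase family, at 0.156, and *NET1B*, encoding an actin-binding protein, at 0.172. The median over the 1534 genes was 0.633. *SGP1*, *BGLU33* and *NET1B* differed between genotypes by 0.97, 1.098 and 0.94, and by 0.76, 0.98 and 0.71 without WT replicate 2. The likeness uses all 6 arrays, so the step between genotypes and the low WT replicate 2 of these genes follow from how they were chosen, and no test is given for them.

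For *BRL1* the closest were *AGO7*, encoding an Argonaute protein of the trans-acting small RNA pathway, at 0.165, *GAMMA-VPE*, encoding a vacuolar processing enzyme, at 0.168, and *LUL1*, encoding a ubiquitin ligase, at 0.177, against a median of 0.747. Their log2 differences were 1.19, 1.23 and 1.13, again a description of genes chosen for this pattern. Without WT replicate 2 they were 0.97, 0.82 and 0.72.

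**Figure D4:**
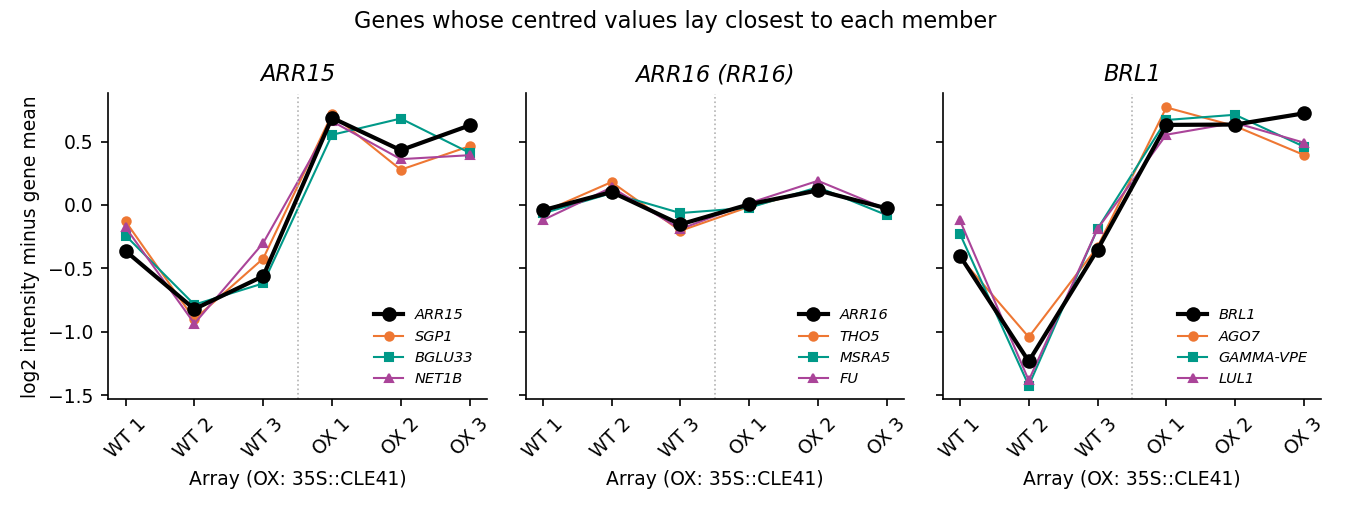
Log2 intensity minus the gene's own mean over 6 arrays, for each member (black) and the 3 genes closest to it (colours), on WT and 35S::CLE41 (OX) replicates 1 to 3. The genes were chosen on these same values, so those beside ARR15 and BRL1 follow the step between genotypes and the low WT replicate 2, and those beside ARR16 stay near 0.

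For *ARR16* the closest were *THO5*, encoding a subunit of an mRNA export complex, at 0.0396, *MSRA5*, encoding a methionine sulfoxide reductase, at 0.0464, and *FU*, encoding a kinase needed for cytokinesis in pollen, at 0.0490, against a median of 0.197. Their log2 differences were 0.05, 0.03 and 0.11. The values shared by *ARR16* and these genes are of the size of the spread between arrays, and no difference between genotypes is read from their order.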

How the data were processed

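Per the labels' protocols, Trizol-extracted RNA was biotin-labelled in 2 cycles. The authors deposited 1 normalized intensity per probe set and array, on a linear scale and with near-equal medians. RMA and limma are named, without version or order, per the submitters' processing notes; no genome build is named there. Values were turned to log2. Gene names came from the array platform's annotation, brought up to date with RefSeq (TAIR10.1). Where a gene had several probe sets, that with the highest mean stood for it.

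All 22746 probe sets were tested two-sided with limma 3.58.1 in R 4.3.3, with lmFit and eBayes on genotype and no covariate, with Benjamini-Hochberg adjustment over all of them and a threshold of 0.05. The SE and 95% interval are those of the moderated fit. The number of arrays limits the precision. Members and lists were chosen with earlier results of these data known. *BRH1*, *ARR23*, *PSY1R* and *EMS1* were added by annotation after the probe table was seen. The other genes named were the measured genes of the cytokinin, brassinosteroid and marker lists, *CLE41*, and for each member the 3 genes with a symbol that lay closest to it. The procedure was tested on simulated data. Alternatives were a replicate block, arrays shifted to 1 median, quantile normalization, leaving out the dimmest 40% of probe sets, eBayes with trend and robust settings, array weights, and leaving out each array in turn. Figures were drawn with matplotlib 3.10.9.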

Additional observations from a re-analysis of the deposited data

How the results depend on the processing

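No detection value was used here, so whether dim probe sets such as that of *ARR16* could show a difference was not tested. *ARR15* kept its rise and its call in 12 of 12 alternatives, *BRL1* in 12 of 12, and each pathway list kept its count of 1 call in the same 12. That call was *ARR15* for cytokinin and *BRL1* for brassinosteroid, so the list counts largely restate the member calls. Taking the probe set of smallest p could change nothing, since each measured list gene had 1 probe set. Left out in turn, single arrays gave 1.05 to 1.27 for *ARR15*, 0.0011 to 0.13 for *ARR16*, 1.04 to 1.48 for *BRL1* and 0.92 to 1.22 for *ARR15* minus *ARR16*. The exact permutation p of the last was at its floor of 0.1 throughout and says nothing about stability. *ARR16* could not be fitted with the dimmest 40% left out. With arrays shifted to 1 median it reversed to -0.016, as did *ARR19* (-0.044), *ARR23* (-0.044), *THO5* (-0.025) and *MSRA5* (-0.054), while the median of all probe sets moved to -0.077. *MSRA5* also reversed with quantile normalization (-0.012), and *BRH1* with quantile normalization (0.053) and array weights (0.0011). Single arrays left out gave ranges that cross 0 for *ARR19* (-0.046 to 0.11), *ARR23* (-0.020 to 0.11), *BRH1* (-0.11 to 0.13), *EMS1* (-0.11 to 0.0017), *THO5* (-0.035 to 0.16) and *MSRA5* (-0.039 to 0.078). *OPS* was called without WT replicate 2 (0.71, adjusted p = 0.042), and *PRK* with array weights (-0.39, adjusted p = 0.0473). Over all probe sets 3364 were called, 53.6% of them higher, against 41.3% of 3367 with arrays shifted to 1 median. Without single arrays 1699 to 2872 were called, with 1906, 1699 and 1930 without 35S::CLE41 replicates 1, 2 and 3. Shifting arrays to 1 median lowers the difference of each probe set by the same amount: *ARR15* moved from 1.16 to 1.09 and *BRL1* from 1.33 to 1.25. The causes of the other changes were not tested. Samples that share a replicate number deviated from their group means with correlations of -0.010, 0.080 and -0.092, and the labels do not pair the samples. A fit with the replicate block called 2897 probe sets, and in it *ARR15* (1.16; adjusted p = 0.0045), *BRL1* (1.33; adjusted p = 0.0131) and *ARR16* (0.06; adjusted p = 0.769) kept their side of the threshold.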
